A study of Mus musculus and Rattus norvegicus with 96 samples.

Results

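Small structured housekeeping RNAs are short noncoding RNAs that fold and act as the core of ribonucleoprotein machines, and 3 of them were followed here through 4 preparations of mouse liver: Rmrp, Rpph1 and Rnu11. They were chosen by name from a list of 4 RNAs, and they are 3 of the 24543 genes of the count table. Rn7sk, the fourth RNA of the list, was not analysed here. The rule that names them uses no measured value.

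The livers came from 12 male B6C3F1 mice aged 10 to 11 weeks. Of these mice, 6 drank vehicle water (Con) and 6 drank water with phenobarbital at 600 ppm for 7 days (PB), a drug that induces hepatic drug metabolism. Each liver gave 4 samples, so that 48 total RNA libraries form 8 groups of 6. Frozen tissue (FR) was kept at low temperature until extraction. Frozen tissue that was afterwards fixed in 10% neutral buffered formalin is called FR>FFPE, frozen tissue that was afterwards fixed in 70% ethanol is called FR>OH, and tissue that went into 10% neutral buffered formalin fresh is called FFPE. Time in formalin is listed as 18 to 24 hours for both FR>FFPE and FFPE. The paper's methods put it at about 18 hours, and give the same time for ethanol in FR>OH. The last 3 preparations were embedded in paraffin. They were extracted with a kit for fixed tissue, whereas FR was extracted with RNAzol RT, so that every comparison with FR also compares extraction methods. Libraries were depleted of ribosomal RNA and were not selected for poly(A), which these RNAs lack. Fixed samples were heated for a shorter time to fragment the RNA, and whether this held for all 3 embedded preparations is not given in the sources used here.

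Rmrp is the RNA of RNase MRP, which takes part in cutting the ribosomal RNA precursor. Rpph1 is the catalytic RNA of RNase P, which trims the 5′ end of transfer RNA precursors, and both enzymes share most of their proteins. Rnu11 encodes U11, the small nuclear RNA that pairs with the 5′ splice site of the rare minor-class introns and works in a particle with the U12 RNA. RNA polymerase III makes Rmrp and Rpph1 from promoters that lie upstream of the gene, and RNA polymerase II makes U11.

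The sequences of the 3 RNAs (GENCODE M21, build GRCm38, all on the minus strand) are shown because the annotation around them bears on which reads could be counted. Rmrp fills chr4:43492788-43493058, and capitals mark the 124 bases that lie opposite an exon of a noncoding transcript of Ccdc107 on the plus strand.
Rmrp: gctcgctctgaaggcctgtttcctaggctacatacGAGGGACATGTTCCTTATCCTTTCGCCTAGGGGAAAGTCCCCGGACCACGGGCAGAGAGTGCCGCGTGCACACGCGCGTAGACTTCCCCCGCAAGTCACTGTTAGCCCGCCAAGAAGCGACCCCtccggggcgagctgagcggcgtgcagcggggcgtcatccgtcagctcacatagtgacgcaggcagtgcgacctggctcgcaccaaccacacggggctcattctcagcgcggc
Rnu11 lies at chr4:132270080-132270213, and capitals mark its first 27 bases. These bases are outside the 108-base RefSeq gene model used for counting (bases 132270079 to 132270186), so the counts cover the body and 3′ end of U11 without its 5′ end. A long intergenic RNA gene, Gm28872, is annotated across all 134 bases on the opposite strand.
Rnu11: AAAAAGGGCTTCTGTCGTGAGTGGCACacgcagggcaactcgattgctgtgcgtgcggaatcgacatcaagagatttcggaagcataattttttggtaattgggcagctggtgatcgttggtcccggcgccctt
Rpph1 fills chr14:50807449-50807767 (319 bases). Bases 36 to 268 lie inside the first exon, an untranslated one, of a transcript of Ccnb1ip1 on the same strand, and only the stretches on each side of that exon are printed. Capitals mark the bases that differ from, or have no counterpart in, Rprl3, the most abundant of 3 copies of the gene elsewhere in the genome: 2 of the first 35 bases and 30 of the last 51.
Rpph1 bases 1 to 35: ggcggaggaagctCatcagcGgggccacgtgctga
Rpph1 bases 269 to 319: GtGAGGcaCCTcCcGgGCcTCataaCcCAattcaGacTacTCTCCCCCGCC

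Rmrp and Rpph1 were rich in G and C, at 64.2% and 67.1% of bases, against 52.2% for Rnu11. The minimum free energy of folding was -106.3 kcal/mol for Rmrp, -149.8 kcal/mol for Rpph1 and -51.0 kcal/mol for Rnu11. Per 100 bases these energies were -39.2, -47.0 and -38.1 kcal/mol, and 62.7%, 71.5% and 59.7% of the bases were paired in the predicted structures. Over the aligned stretch, Rpph1 was identical to Rprl3 at 86.6% of aligned positions, to Rprl2 at 86.3% and to Rprl1 at 83.9%. The longest run shared with a copy was 37 bases (Rprl3) and no run of 50 bases, the length of an untrimmed read, was shared. Rpph1 counts were nevertheless not whole numbers, so some reads had been divided between genes. Counts of Rprl3 came to 6.60% of those of Rpph1 over all libraries, those of Rprl2 to 0.439% and those of Rprl1 to 0.00353%.

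Column totals were 11737338 to 13702672 counts in FR, 5534973 to 10681783 in FR>FFPE, 8167321 to 11539022 in FR>OH and 4952797 to 6760422 in FFPE. Cyp2b10, the standard marker of phenobarbital exposure, was at 0 to 2.45 CPM (counts for every 1000000 counts of the column total) in the 24 Con libraries and at 1078 to 2289 CPM in the 24 PB libraries. Hepatocyte markers were present in every library. Their summed level had a median of 84877 CPM in FR and 47517 CPM in FFPE, and 5 of the 6 passed the test as lower in FFPE. Lower in FFPE were also 4 of 5 Kupffer cell markers (summed median 182 CPM against 298 in FR), 3 of 5 stellate cell markers (274 against 403) and 4 of 5 red blood cell markers (280.0 against 575), and 1 of 5 cholangiocyte markers (49.2 against 70.8). Of the markers of endothelial cells, stellate cells and cholangiocytes 1, 1 and 2 were higher, and no marker of any list was at 0 throughout. In this comparison 17.3% of all genes passed as lower and 53% as higher. These calls rest on 1 choice of library size, and both shares change with that choice. In bulk tissue, fewer cells of a type and less RNA per cell cannot be told apart. The ribosomal RNA precursor Rn45s took 0.421% to 1.31% of counts in FR and 8.13% to 12.8% in FFPE. The titles carry a number from L1 to L5, called the lane number here. Each number covers more libraries than the methods give for a sequencing lane, so what it marks is uncertain. It followed the preparations closely, with FFPE libraries alone under L1, and the effects of lane number and preparation largely cannot be told apart.

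Rmrp stood at about the same level in all 8 groups when taken as CPM of the column total. As CPM, FR Con ran from 1253 to 1669 (median 1458) and FR PB from 1391 to 2129 (median 1515). FR>FFPE Con ran from 1436 to 1790 (median 1597) and FR>FFPE PB from 1068 to 1746 (median 1639). FR>OH Con ran from 1294 to 1957 (median 1637) and FR>OH PB from 1017 to 1406 (median 1247). FFPE Con ran from 1052 to 1673 (median 1305) and FFPE PB from 1099 to 1610 (median 1394). Ranges of neighbouring groups in the order of means overlapped throughout, and the highest group mean, FR>FFPE Con at 1615 ± 156 CPM (SD, n = 6), was 1.32 times the lowest, FR>OH PB at 1220 ± 175 CPM (SD, n = 6). These values rest on 6251 to 26986 counts in a library, so the counting error expected at the mean count of a group was at most 1.14%, while the libraries of a group varied by 9.69% to 16.7% (coefficient of variation).

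Rpph1 had the most counts of the 3 RNAs and, as CPM of the column total, was also level across the groups. FR Con ran from 3080 to 3909 CPM (median 3714) and FR PB from 3163 to 4680 CPM (median 3423). FR>FFPE Con ran from 2869 to 6153 CPM (median 3517) and FR>FFPE PB from 3357 to 4156 CPM (median 3498). FR>OH Con ran from 3053 to 4705 CPM (median 3924) and FR>OH PB from 2457 to 3716 CPM (median 2951). FFPE Con ran from 3176 to 4606 CPM (median 3530) and FFPE PB from 2799 to 3909 CPM (median 3475). All neighbouring groups overlapped, and the highest mean, in FR>OH Con, was 1.29 times the lowest, in FR>OH PB. The single value of 6153 CPM belonged to FR>FFPE Con mouse 21C, whose library was the smallest of its group at 5534973 counts. Rpph1 ranked 33 and Rmrp 70 by mean CPM among the 13370 genes kept by the filter.

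Rnu11 had few counts, and its level was unequal between preparations. FR Con ran from 0.0767 to 0.315 CPM (median 0.124), on 1 to 4 counts a library, and FR PB from 0.0798 to 0.552 CPM (median 0.20), on 1 to 7 counts. FR>OH Con ran from 0.444 to 0.931 CPM (median 0.542) and FR>OH PB from 0.0867 to 0.708 CPM (median 0.336). FR>FFPE Con ran from 0.361 to 1.64 CPM (median 0.611) and FR>FFPE PB from 0.201 to 0.796 CPM (median 0.715). FFPE Con ran from 1.34 to 3.50 CPM (median 2.30), on 7 to 23 counts, and FFPE PB from 0.444 to 3.63 CPM (median 2.13), on 3 to 21 counts. The order of means was FR Con, FR PB, FR>OH PB, FR>FFPE PB, FR>OH Con, FR>FFPE Con, FFPE PB and FFPE Con. Neighbours in that order overlapped, but the ends did not: the mean of FFPE Con, 2.31 ± 0.777 CPM (SD, n = 6), was 15.6 times that of FR Con, 0.148 ± 0.0928 CPM (SD, n = 6). Among the FFPE libraries, 11 of 12 lay above the highest FR library, against 8 of 12 for FR>FFPE and 5 of 12 for FR>OH. The exception in FFPE was PB mouse 20B at 0.444 CPM, and the same mouse gave the lowest value of its group in FR>FFPE (0.201 CPM) and FR>OH (0.0867 CPM).

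**Figure D1:**
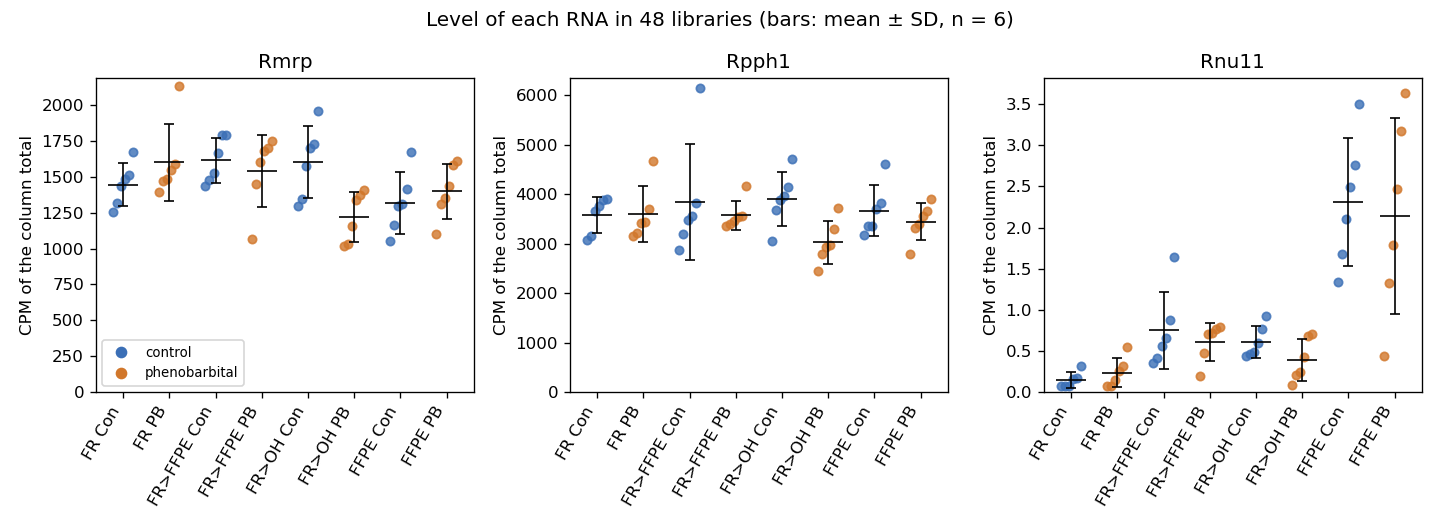
CPM of the column total (vertical axes, each from 0) for Rmrp, Rpph1 and Rnu11 in the 8 groups; each point is 1 library, blue for control and orange for phenobarbital, and bars give the mean ± SD of 6 libraries. On this scale Rmrp and Rpph1 stay level across groups apart from the Rpph1 value of 6153 CPM in FR>FFPE Con, whereas Rnu11 is highest in FFPE Con and FFPE PB.

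Per kilobase of RefSeq gene length, the mean level in FR was 11038 ± 1392 CPM for Rpph1, 5538 ± 806 CPM for Rmrp and 1.79 ± 1.35 CPM for Rnu11 (SD, n = 12). In FFPE the per-kilobase levels were 10938 ± 1376 CPM, 4938 ± 718 CPM and 20.6 ± 8.91 CPM (SD, n = 12). On this scale Rpph1 exceeded Rmrp 1.99 times in FR and 2.21 times in FFPE. Counts of Rmrp exceeded those of Rnu11 3088 times in FR and 240 times in FFPE. The counts of Rnu11 leave out its 5′ end, and how fully so short an RNA entered the libraries was not tested. These values are therefore not ratios of RNA molecules in the tissue.

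The first comparison asked what each preservation did to the RNA relative to freezing. Counts were fitted with edgeR's quasi-likelihood test over all 13370 kept genes, with adjustment by Benjamini-Hochberg, and fold changes are averages over Con and PB. In FFPE vs. FR, Rnu11 rose by 3.47 ± 0.316 (SE) on the log2 scale, an 11.1-fold difference (adjusted p = 1.88e-13), and was higher in 12 of 12 mice. Rmrp differed by -0.16 ± 0.0859 (adjusted p = 0.0853) and Rpph1 by -0.01 ± 0.0919 (adjusted p = 0.902). So 1 of the 3 RNAs passed, where 70.3% of all genes did and 53% passed as higher. Among all fold changes Rnu11 lay at percentile 99.9, Rpph1 at percentile 28.9 and Rmrp at percentile 21.3. The Rn45s share and the summed hepatocyte markers given above moved in the same comparison, and their part in these differences was not tested.

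Rnu11 also rose in the preparations that had been frozen first. In FR>FFPE vs. FR the rise was 1.80 ± 0.346 on the log2 scale (SE, adjusted p = 1.5e-05, higher in 12 of 12 mice), where 65.4% of all genes passed. In FR>OH vs. FR it was 1.32 ± 0.367 (SE, adjusted p = 0.00217, higher in 9 of 12 mice), where 54.9% of all genes passed. Rmrp differed by 0.05 ± 0.0859 and -0.12 ± 0.0859 in these comparisons (adjusted p = 0.606 and 0.230), and Rpph1 by 0.05 ± 0.0919 and -0.06 ± 0.0919 (adjusted p = 0.662 and 0.602). Neither of those RNAs passed in either comparison by this fit, but both passed as lower in both under TMM, DESeq2, limma and the larger divisor (with TMM -0.25 and -0.26 in FR>FFPE and -0.30 and -0.24 in FR>OH for Rmrp and Rpph1), so in FR>FFPE their sign turned with the library size. Those settings, in that order, called 3364, 3469, 3808 and 3913 of all 13370 genes lower in FR>FFPE. In FR>OH they called 3480, 3596, 4834 and 5025 lower.

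Fresh and frozen-first formalin fixation were compared directly in FFPE vs. FR>FFPE. Rnu11 rose by a further 1.67 ± 0.275 on the log2 scale (SE, adjusted p = 6.6e-06, higher in 12 of 12 mice), where 29.2% of all genes passed and 11.8% passed as higher. Rmrp differed by -0.22 ± 0.086 (adjusted p = 0.0523, lower in 11 of 12 mice) and Rpph1 by -0.06 ± 0.092 (adjusted p = 0.673). Formalin and ethanol after freezing, FR>FFPE vs. FR>OH, gave no call in the 3 RNAs by edgeR, where 22.3% of all genes passed, and 1 of the 3 had an unadjusted p under 0.05. There the differences were 0.48 ± 0.314 for Rnu11 (adjusted p = 0.290), 0.18 ± 0.0859 for Rmrp (adjusted p = 0.138) and 0.11 ± 0.092 for Rpph1 (adjusted p = 0.435). DESeq2 did not call Rmrp or Rpph1 in this comparison and gave Rnu11 no adjusted p.

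With the mouse as a replicate block, Rmrp passed as lower in FFPE than in FR (-0.17, adjusted p = 0.0250) and than in FR>FFPE (-0.22, adjusted p = 0.00848), and as higher in FR>FFPE than in FR>OH (0.17, adjusted p = 0.0407). Of all 13370 genes, 2658, 3303 and 4779 passed in the same directions. In Con mice alone the block gave Rmrp a call in FFPE vs. FR>FFPE (-0.30, adjusted p = 0.0166). In PB mice alone it gave Rpph1 a call in FR>OH vs. FR (-0.25, adjusted p = 0.0248), and gave calls in FR>FFPE vs. FR>OH to Rmrp (0.33, adjusted p = 0.00716) and Rpph1 (0.25, adjusted p = 0.0476). Calls of Rnu11 were the same with the replicate block in all of these comparisons. The numbers of all genes passing with the block in Con or PB mice alone are not given here.

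A differentially expressed gene (DEG), as the study defines one, needs an adjusted p under 0.05 and a change of at least 2-fold, and here it had to hold in Con and in PB with the same direction. Rnu11 met this in FFPE vs. FR, with 3.86 ± 0.460 in Con and 3.08 ± 0.432 in PB on the log2 scale (SE), as 10.8% of all genes did. It met it in FR>FFPE vs. FR, as 3.99% of all genes did, and in FFPE vs. FR>FFPE, where 17 genes, 0.127% of all, did. Both depended on the setting. Rnu11 missed in PB in FR>FFPE vs. FR with TMM (0.98, adjusted p = 0.0933), DESeq2 (1.01, adjusted p = 0.100), limma on the deposited log2 values (1.19, adjusted p = 0.0923) and the larger divisor behind those values (0.95, adjusted p = 0.110), against 1.31 (adjusted p = 0.0165) by the first fit. In FFPE vs. FR>FFPE it missed by limma in Con (1.16, adjusted p = 0.0582) and PB (1.10, adjusted p = 0.0724) and was under 2-fold in Con with the larger divisor (0.99), and DESeq2 gave it no adjusted p in Con or PB alone. The definition held in FFPE vs. FR under each of these settings. With the lane number as a term, Rnu11 missed in Con in FR>FFPE vs. FR (2.68, adjusted p = 0.0660) and in FFPE vs. FR>FFPE (0.56, adjusted p = 0.861). In FR>OH vs. FR, where 2.56% of all genes met it, Rnu11 passed in Con (1.97 ± 0.518, adjusted p = 0.00181, where 31.1% of all genes passed as higher) and missed in PB (0.67 ± 0.513, adjusted p = 0.322). In FR>FFPE vs. FR>OH 1 gene, 0.00748% of all, met it, and none of the 3 RNAs. Rmrp and Rpph1 met the definition in none of these comparisons.

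The low counts of Rnu11 were also pooled. The 12 FR libraries held 29 counts of Rnu11, the 12 FFPE libraries 159, the 12 FR>FFPE libraries 78 and the 12 FR>OH libraries 56. The ratio of pooled CPM to FR was 11.4 for FFPE (95% exact interval 7.65 to 17.6), 3.56 for FR>FFPE (2.30 to 5.66) and 2.58 for FR>OH (1.62 to 4.2). In PB alone the ratio for FR>OH was 1.61 with an interval of 0.823 to 3.18, so a difference was not detectable there at this depth. These intervals cover counting error of the pooled counts only, and variation between mice and libraries is left out. Across the 12 FFPE libraries Rnu11 varied by 43.2% (coefficient of variation), against 27.5% expected from counting at the mean count. The reads also carry no molecular identifiers, so counting error itself may not be fully covered. Under L2, the one lane number with FFPE and FR libraries side by side, the 2 FFPE PB libraries had 1.32 and 1.79 CPM and the 2 FR PB libraries 0.254 and 0.323 CPM. With the lane number as a term of the fit, the rise in FFPE vs. FR was 2.80 (adjusted p = 0.00138).

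Levels of Rmrp and Rpph1 relative to FR depended on what a library was divided by, because the median of all genes moved with it. In FFPE vs. FR that median was 0.32 on the log2 scale with library size as the total over kept genes, 0.04 with TMM (a trimmed mean of M values) and -0.63 with the larger divisor of the authors' log2 CPM. Rmrp differed by -0.16, -0.45 and -1.12 under these, and Rpph1 by -0.01, -0.30 and -0.97. TMM and the larger divisor made both differences pass (adjusted p = 3.46e-05 and 0.00340 with TMM), where 4185 and 9451 of all 13370 genes passed as lower. Relative to the median of all genes the picture did not move, because a library size shifts all genes together by construction. Rmrp was at -0.49, -0.49 and -0.50, Rpph1 at -0.34, -0.34 and -0.35, and Rnu11 at 3.14, 3.15 and 3.16. Other settings did move these values. For Rmrp, Rpph1 and Rnu11 in that order, limma on the deposited log2 values gave -0.43, -0.27 and 3.41. The lane number as a term gave -0.36, -0.29 and 2.47. In FR>FFPE vs. FR, where the sign of both RNAs turns with TMM (-0.25 for Rmrp and -0.26 for Rpph1), Rmrp was at -0.29 and Rpph1 at -0.29 relative to the median, and in FR>OH vs. FR they were at -0.30 and -0.24.

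**Figure D2:**
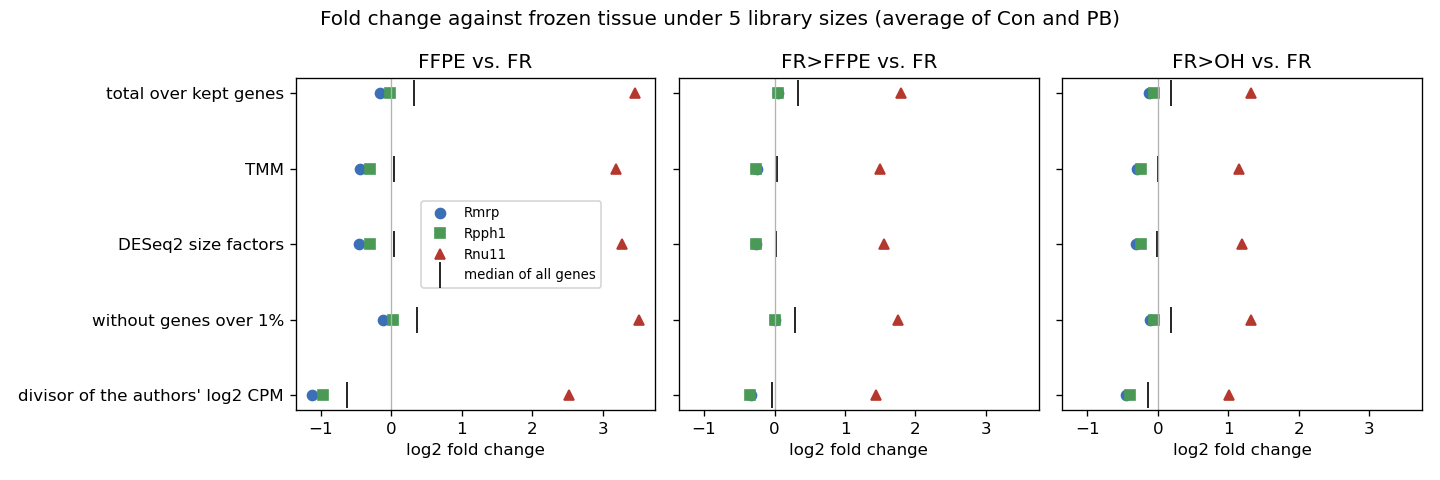
Log2 fold change (horizontal axes) of Rmrp (circles), Rpph1 (squares) and Rnu11 (triangles) in each preparation vs. FR under 5 library sizes (rows), with the median of all genes as a vertical tick. By construction the 3 RNAs and the tick shift together between rows, as in FFPE vs. FR where the tick moves from 0.32 to -0.63. Rnu11 lies above the tick and Rmrp and Rpph1 below it.

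A ratio of 2 RNAs within a library does not depend on the library size, apart from the number added to each count, which matters for the few counts of Rnu11. Log2 ratios of counts plus 0.5 were compared between preparations of the same mouse by an exact two-sided sign-flip permutation test over 12 mice, for 3 ratios and 5 comparisons, and p-values were adjusted over these 15 tests. The ratio of Rnu11 to Rpph1 rose in FFPE vs. FR by 3.37 ± 1.01 (SD, n = 12, exact adjusted p = 0.00122) and in 12 of 12 mice. It rose by 1.70 ± 1.07 in FR>FFPE vs. FR (SD, n = 12, exact adjusted p = 0.00122) and by 1.36 ± 1.33 in FR>OH vs. FR (SD, n = 12, exact adjusted p = 0.011). Between FFPE and FR>FFPE it rose by 1.68 ± 0.666 (SD, n = 12, exact adjusted p = 0.00122). Unadjusted, 0.000488 is the smallest p that 12 mice can give, and each of these comparisons except FR>OH vs. FR reached it. With 2 added to each count in place of 0.5, the rises were smaller, at 2.84, 1.32, 1.08 and 1.52 in the same order. All of them passed the same test (exact adjusted p at most 0.00366).

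The ratio of Rnu11 to Rmrp followed the same course, with 3.53 ± 0.983 in FFPE vs. FR, 1.68 ± 0.994 in FR>FFPE vs. FR and 1.42 ± 1.23 in FR>OH vs. FR (SD, n = 12, exact adjusted p = 0.00122, 0.00122 and 0.00523). With 2 added to each count these were 2.99, 1.30 and 1.15. As counts of Rnu11 for every 10000 counts of Rmrp, the median library had 1.09 in FR, 3.60 in FR>OH, 4.34 in FR>FFPE and 16.2 in FFPE. Neither ratio with Rnu11 passed in FR>FFPE vs. FR>OH (0.34 ± 0.789 for Rpph1 and 0.26 ± 0.760 for Rmrp, SD, n = 12, exact adjusted p = 0.203 and 0.277).

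Rmrp and Rpph1 kept close to a fixed ratio. The median library had 0.418 counts of Rmrp for each count of Rpph1 in FR, 0.465 in FR>FFPE, 0.418 in FR>OH and 0.368 in FFPE. The ratio fell in FFPE vs. FR by 0.15 ± 0.162 on the log2 scale (SD, n = 12, exact adjusted p = 0.0163) and was lower in 9 of 12 mice. It was 0.08 ± 0.112 higher in FR>FFPE than in FR>OH (SD, n = 12, exact adjusted p = 0.0454, 11 of 12 mice). The other comparisons of this ratio did not pass (exact adjusted p = 0.105 to 0.786). Taken over Con mice or PB mice alone, where 6 mice allow a p of 0.0312 at the least, neither difference passed.

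**Figure D3:**
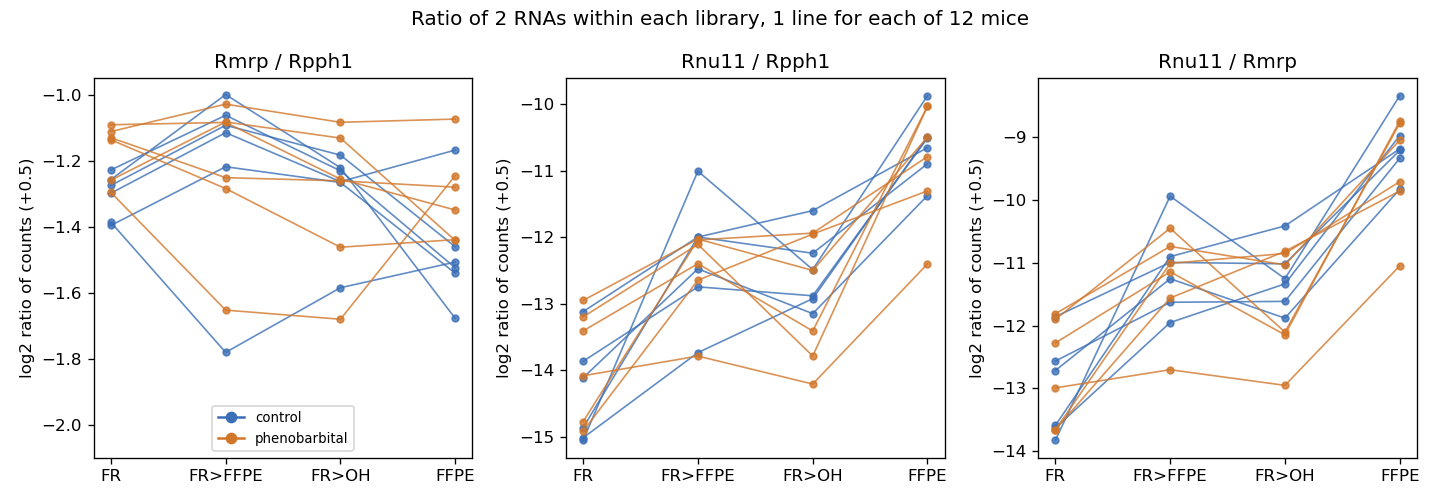
Log2 ratio of counts plus 0.5 (vertical axes) for each pair of RNAs in the 4 preparations, with 1 line for each of 12 mice, blue for control and orange for phenobarbital. Both ratios with Rnu11 rise from FR to FFPE in every mouse, while the ratio of Rmrp to Rpph1 stays between -1.78 and -0.999.

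Across the 48 libraries Rmrp and Rpph1 varied together, with Pearson's r = 0.664 for log2 CPM and 0.631 after the mean of each group was removed. Each was among the 3 genes most like the other of 12287 compared. Rpph1 was most like Rprl3 (r = 0.784), then Rmrp and 2310039H08Rik (r = 0.578). Rmrp was most like Rpph1, then Snora44 (r = 0.528) and Hist2h2aa1 (r = 0.521). Rnu11 was most like Gm20594 (r = 0.875), Pskh1 (r = 0.850) and the small nucleolar RNA Snora70 (r = 0.844), over points that share preparation, lane number and depth. With Rmrp and Rpph1 it correlated at r = -0.04 and 0.11. These correlations are descriptions over 48 libraries from 12 mice.

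The second comparison asked whether phenobarbital moved the RNAs within a preparation. In FR, where 8.45% of all genes passed, none of the 3 did: PB vs. Con was 0.15 ± 0.121 for Rmrp, 0.01 ± 0.130 for Rpph1 and 0.65 ± 0.571 for Rnu11 (SE, log2 scale, adjusted p = 0.530 to 0.979). None passed by edgeR after formalin following freezing (7.23% of all genes, adjusted p = 0.739 to 0.838) or in FFPE (6.63% of all genes, adjusted p = 0.764 to 0.889). Of these 9 tests 0 had an unadjusted p under 0.05, and DESeq2 gave 0 calls. The interval of 2 SE on each side for PB vs. Con in FR was -0.09 to 0.39 for Rmrp, -0.25 to 0.27 for Rpph1 and -0.49 to 1.79 for Rnu11.

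FR>OH was the exception, where 12.2% of all genes passed and 3.77% passed as lower. Rmrp was lower in PB than in Con by -0.39 ± 0.122 (SE, log2 scale, adjusted p = 0.0265), from a mean of 1600 ± 251 CPM in Con to 1220 ± 175 CPM in PB (SD, n = 6). Rpph1 differed by -0.37 ± 0.130 (adjusted p = 0.0547), and it passed with TMM (-0.40, adjusted p = 0.0284), where 789 of all 13370 genes passed as lower. Rnu11 differed by -0.66 ± 0.467 (adjusted p = 0.402). The Con and PB ranges overlapped for all 3 RNAs. The call of Rmrp was lost when only the FR>OH libraries were fitted (adjusted p = 0.0693) and with the larger divisor (-0.30, adjusted p = 0.0744). It was also lost when only the FR>OH libraries of L5, 3 Con and 6 PB, were fitted (-0.38, adjusted p = 0.252). That fit has fewer libraries, and its estimate is close to the first. L4 held 3 of the 6 FR>OH Con libraries and no FR>OH PB library.

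The interaction, which asks whether the PB effect differed from that in FR, passed for none of the 3 RNAs in any preparation by edgeR. Of all genes 0% passed in each of the 3 interactions, and genes at an unadjusted p under 0.05 numbered 305 for FR>OH, 288 for FR>FFPE and 463 for FFPE. DESeq2 also gave 0 calls in each, and the fit with the replicate block gave 37, 0 and 1. Among the 3 RNAs, 2 had an unadjusted p under 0.05, both in FR>OH: Rmrp at -0.54 ± 0.172 (unadjusted p = 0.00295) and Rpph1 at -0.38 ± 0.184 (unadjusted p = 0.0453), with adjusted p = 1.00 for each. Seen from the side of preservation, Rmrp fell in FR>OH vs. FR in PB mice (-0.39 ± 0.122, adjusted p = 0.00836, lower in 6 of 6 mice, where 7.35% of all genes passed as lower), and in Con mice it differed by 0.15 ± 0.121 (adjusted p = 0.351).

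The proteins that work with these RNAs gave lists of related genes. RNase P and RNase MRP share a set of Pop and Rpp subunits, and 10 of the 11 listed genes were tested. Of these, 5 were lower in FFPE vs. FR, 1 was higher and 4 did not pass, with a median of -0.33 against 0.32 for all genes, 17.3% of which passed as lower. The lowest were Rpp25l (-0.92 ± 0.0927, adjusted p = 3.72e-12) and Rpp21 (-0.90 ± 0.182, adjusted p = 2.65e-05), and the higher gene was Pop1, the largest subunit (0.30 ± 0.139, adjusted p = 0.0497). In FR>FFPE vs. FR, where 8.92% of all genes passed as lower and 56.5% as higher, 3 were lower, Rpp25l (-0.52) and Rpp30 (-0.34) the most, and Pop1 was higher (0.30). In FR>OH vs. FR, where these shares were 13.3% and 41.7%, 4 were lower and none was higher, with Rpp30 at -0.55 and Rpp25l at -0.40. With TMM, 8, 7 and 7 of the 10 were lower and none was higher in these 3 comparisons. Of all 13370 genes, TMM called 4185, 3364 and 3480 lower and 4561, 3633 and 3365 higher there. With the larger divisor, used for the next lists, these numbers were 9451, 3913 and 5025 lower and 877, 2734 and 2081 higher.

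The proteins of the U11/U12 particle and of minor-class splicing lay near the median of all genes. Of 8 genes, 5 rose and 1 fell in FFPE vs. FR, where 53% of all genes passed as higher and 17.3% as lower, with a median of 0.31 against 0.32 for all genes. The largest rises were in Zrsr2, which recognises the 3′ splice site of minor-class introns (0.90 ± 0.0859, adjusted p = 7.29e-13), and Pdcd7, a U11/U12 protein (0.62 ± 0.115, adjusted p = 6.35e-06). Zmat5, another U11/U12 protein, fell (-0.39 ± 0.161, adjusted p = 0.0277). With TMM, 2 were higher and 1 was lower, and with the larger divisor none was higher and 7 were lower. Of all 13370 genes, 4561 were higher and 4185 lower with TMM, and 877 and 9451 with the larger divisor. In FR>FFPE vs. FR, where 56.5% of all genes were higher, 5 were higher and 0 lower, against 2 and 2 with TMM and 1 and 3 with the larger divisor. In FR>OH vs. FR, where 41.7% of all genes were higher, 3 were higher and 1 lower, against 2 and 1 with TMM and 0 and 2 with the larger divisor.

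Factors of upstream promoters, other factors of RNA polymerase III and the subunits of that polymerase formed a list of 23 genes, all tested. Not every factor listed acts at the promoters of the 3 RNAs. In FFPE, 15 were higher and 0 lower than in FR, where 53% of all genes were higher, with a median of 0.37 against 0.32 for all genes. With TMM 7 were higher and 3 lower, and with the larger divisor 2 were higher and 19 lower. Of all 13370 genes, 4561 were higher and 4185 lower with TMM, and 877 and 9451 with the larger divisor. Brf1, a transcription factor of RNA polymerase III (1.29 ± 0.111, adjusted p = 3.42e-14), and Snapc4, the large subunit of the complex that binds small nuclear RNA promoters (1.26 ± 0.106, adjusted p = 1.51e-14), had the largest differences. After freezing and formalin (FR>FFPE vs. FR) 18 were higher and 0 lower (56.5% of all genes higher), against 7 and 2 with TMM and 6 and 4 with the larger divisor. In FR>OH vs. FR 12 were higher and 0 lower (41.7% of all genes higher), against 6 and 2 with TMM and 4 and 5 with the larger divisor. Proteins of the 7SK particle and of the elongation factor it holds back numbered 7, and 5 of them were higher in FR>OH vs. FR (41.7% of all genes higher) and 6 in FR>FFPE vs. FR (56.5%) and in FFPE vs. FR (53%), led in FFPE by Mepce (0.88 ± 0.0905) and Ccnt2 (0.87 ± 0.0622). With TMM 4, 3 and 3 were higher and 1 was lower in each. That direction turned for FFPE with the larger divisor, where 0 were higher and 5 were lower, as were 9451 of all 13370 genes.

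PB vs. Con gave no edgeR call among the RNase P and MRP proteins, the U11/U12 proteins or the promoter and polymerase factors in any of the 4 preparations. In each preparation 10, 8 and 23 genes of these lists were tested. Over the 4 preparations 3, 6 and 3 tests had an unadjusted p under 0.05, and DESeq2 gave 0, 2 and 0 calls. In the 7SK list 1 of 7 genes passed by edgeR, Hexim2 in FFPE, where 4.64% of all genes passed as higher, with 6 unadjusted p under 0.05 over the 4 preparations and 3 calls by DESeq2. Among other small structured RNAs, described next, with 6 genes tested in each preparation, edgeR gave 0 calls, with 6 unadjusted p under 0.05, and DESeq2 gave 2, both in FR>OH. Of all 13370 genes DESeq2 called 894, 552, 1133 and 611 higher in FR, FR>FFPE, FR>OH and FFPE, and 582, 364, 885 and 418 lower. The share of all genes at an unadjusted p under 0.05 is not given here. Read as counts against all genes, these lists describe what moved beside the 3 RNAs and were not tested as sets.

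**Figure D4:**
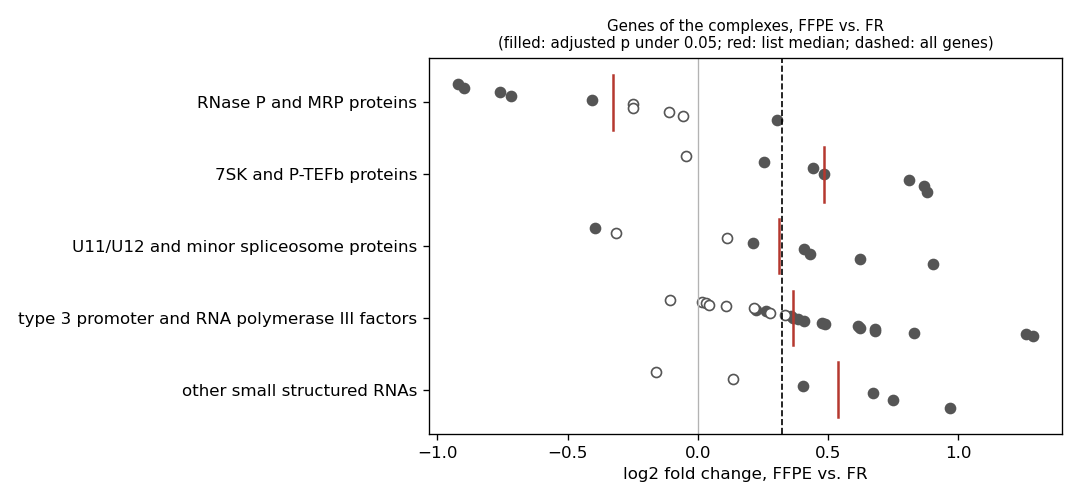
Log2 fold change in FFPE vs. FR (horizontal axis) for each tested gene of 5 lists (rows); filled points have an adjusted p under 0.05, red lines are list medians and the dashed line is the median of all genes. The median of the RNase P and MRP proteins lies at -0.33, left of the dashed line at 0.32, and that of the U11/U12 proteins lies at 0.31.

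Other small structured RNAs formed a list of 25 genes, of which 12 are in the table, 3 of these without a count in any library, and 6 were tested. Between FR and FFPE, where 53% of all genes rose, 4 of the 6 rose: the vault RNA Vaultrc5 (0.97 ± 0.148, adjusted p = 1.48e-07), the telomerase RNA Terc (0.75 ± 0.165, adjusted p = 8.96e-05), Rnu12 (0.67 ± 0.128, adjusted p = 9.76e-06) and Rprl3 (0.40 ± 0.111, adjusted p = 0.00139). Rprl2 (-0.16) and Snord118 (0.14) did not pass. With TMM 3 were higher and 1 was lower, and with the larger divisor 0 were higher and 4 lower. Of all 13370 genes, 4561 were higher and 4185 lower with TMM, and 877 and 9451 with the larger divisor.

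Rnu12, the partner of U11, served as a reference for Rnu11. It had a mean of 15.3 CPM in FR and 24.6 CPM in FFPE, and in FR>FFPE vs. FR and FR>OH vs. FR it differed by 0.02 and -0.01 (adjusted p = 0.876 and 0.95). For every 10000 counts of Rnu12, the median library had 137 counts of Rnu11 in FR, 304 in FR>OH, 422 in FR>FFPE and 919 in FFPE. The ratio, which was added after its values were seen, rose in FFPE vs. FR by 2.64 ± 1.01 on the log2 scale (SD, n = 12, exact permutation p = 0.000488, 12 of 12 mice). It rose by 1.69 ± 0.928 in FR>FFPE vs. FR (SD, n = 12, exact permutation p = 0.000488) and by 1.28 ± 1.03 in FR>OH vs. FR (SD, n = 12, exact permutation p = 0.000977).

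The counted lengths of the 3 RNAs differ (108, 275 and 325 bases for Rnu11, Rmrp and Rpph1), and length was examined over all 38 tested small nucleolar, small nuclear, guide, RNase and telomerase RNAs of at most 400 bases, a grouping made after the values were seen. In FFPE vs. FR the 18 genes of up to 130 bases, Rnu11 among them by its counted length, had a median of 1.93 on the log2 scale, with 15 higher and 0 lower, against a median of 0.32 for all genes, of which 53% were higher and 17.3% lower. The 12 genes of over 130 and up to 200 bases had a median of 0.66, with 9 higher, and the 8 genes of over 200 bases, Rmrp and Rpph1 among them, had a median of 0.17, with 4 higher and 1 lower. These values rest on the total over kept genes as library size. With the larger divisor the median of all genes was -0.63, so how many count as higher or lower depends on that choice. The length groups were not summarised under other library sizes. By its full length of 134 bases Rnu11 would belong to the middle group. Level differed with length too. Mean levels were 0.543 to 44.7 CPM up to 130 bases and 5.52 to 3580 CPM over 200 bases, and the part of level was not tested. Spearman's rho between length and fold change was -0.63 across these 38 genes in FFPE vs. FR, -0.60 in FR>FFPE vs. FR and -0.60 in FR>OH vs. FR. Rnu11 had the highest fold change of the 38 in all 3 comparisons, ahead in FFPE vs. FR of Snora26 (2.96) and Snora16a (2.83). Short genes without a rise were also present, such as Snora44 (117 bases, -0.31, adjusted p = 0.255) and Snora7a (129 bases, -0.28, adjusted p = 0.242). Extraction method differed between FR and the embedded preparations, as fragmentation time did for fixed samples, and these cannot be told apart from fixation here.

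**Figure D5:**
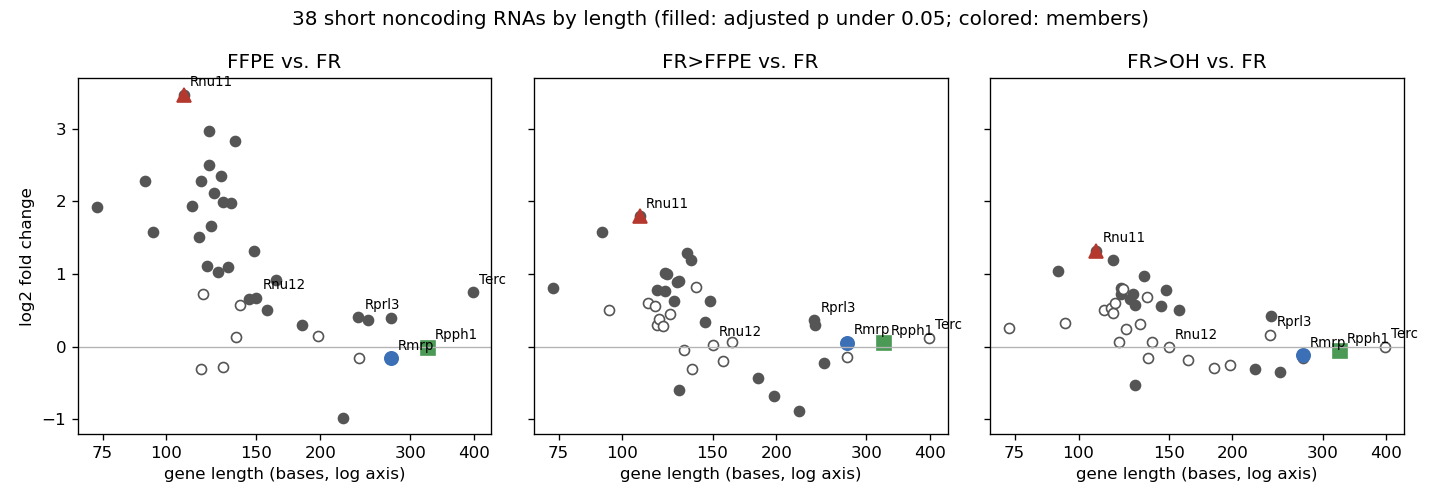
Log2 fold change (vertical axis) against gene length in bases (horizontal log axis) for 38 short noncoding RNAs in each preparation vs. FR; filled points have an adjusted p under 0.05, and Rnu11, Rpph1 and Rmrp are drawn as a red triangle, a green square and a blue circle. In FFPE vs. FR, with the total over kept genes as library size, the genes of up to 130 bases have a median of 1.93. Those of over 200 bases have a median of 0.17. Rnu11 is placed at its counted length of 108 bases.

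Neighbouring genes were examined because their reads can fall on the same bases. Ccdc107, which overlaps Rmrp on the opposite strand, had 42 to 221 counts in a library, far below Rmrp, and fell in FFPE vs. FR (-0.45 ± 0.0971, adjusted p = 7.97e-05) and in FR>FFPE vs. FR (-0.28 ± 0.0932, adjusted p = 0.00761). Ccnb1ip1, which shares 233 bases with Rpph1, had 0 to 6 counts. Parp2 starts 74 bases upstream of Rpph1 on the other strand and had 18 to 91 counts, with 0.13 ± 0.119 in FFPE vs. FR (adjusted p = 0.350). Taf12, the nearest gene at higher coordinates than Rnu11, 4162 bases away, had 43 to 176 counts, and its difference in FFPE vs. FR was 0.07 ± 0.0728 (adjusted p = 0.384). Arhgef39 and Sit1, on each side of Rmrp, had 0 to 32 and 0 to 5 counts, and Arhgef39 differed by 0.14 ± 0.550 (adjusted p = 0.834). Gm28872, opposite Rnu11, and Gm28874 and Gm48938, the nearest genes at lower coordinates than Rnu11 and Rpph1, were not analysed here. Whether reads were assigned by strand is not given in the sources used here, so reads from a gene and from its opposite-strand partner cannot be told apart.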

How the data were processed

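Total RNA-seq of 48 mouse liver libraries was used. The authors trimmed reads (2 × 50 bases), aligned them to GRCm38 with STAR 2.5.3a (versions per the submitters' processing notes) and estimated counts on RefSeq 81 by expectation-maximization in Partek Flow. The deposited values are expected counts per gene, which were rounded for fitting. A second deposited table holds log2 CPM made by the authors with a larger divisor, which served as an alternative. The methods call this divisor the total library size, and gene counts came to 21.4% to 51.8% of it. TempO-Seq tables of other experiments were not used.

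Genes with a geometric mean above 1 count (offset 1e-04) were kept, 13370 of 24543. All 3 RNAs passed, and Rnu11 had a geometric mean of 1.93 counts in FR alone. edgeR 4.0.16 fitted 8 group means by quasi-likelihood with the total over kept genes as library size. Benjamini-Hochberg adjustment ran over all kept genes and calls needed an adjusted p under 0.05. The script was tested on simulated data. DESeq2 1.42.0 and limma 3.58.1 were alternatives. RNAs were folded with ViennaRNA 2.7.2. SEs are the fold change over the root of F.

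Each liver gave all 4 preparations, so samples pair by mouse: over 7953 genes, deviations from group means correlated at 0.461 or more (median 0.699) in all 72 same-mouse pairs, and the median between mice was -0.126. No 2 libraries of a group agreed within sampling noise. The members and gene lists were chosen with earlier results of these data known. Named genes are the 3 RNAs, their neighbours, the 2 largest passing changes in each direction in a list, and the 3 genes with the highest Pearson's r over 48 libraries (log2 CPM, prior count 2, mean of at least 1 CPM). Others named were chosen after their values were seen.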

Additional observations from a re-analysis of the deposited data

Results flagged for a closer look

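In 48 sets of 6 libraries (3 RNAs and 3 ratios in 8 groups), 7 had a library that stood apart by Dixon's criterion, where chance gives about 1 in 20, or 2.4. In FR PB, mouse 20D had the highest Rmrp (2129 CPM, the other 5 libraries 1391 to 1589) and the highest Rpph1 (4680 CPM, the others 3163 to 3696). In FR>FFPE Con, mouse 21C had Rpph1 at 6153 CPM (the others 2869 to 3816) and a log2 ratio of Rmrp to Rpph1 of -1.78 (the others -1.22 to -0.999). The same mouse stood apart in FR>OH Con, with a log2 ratio of -1.58 (the others -1.27 to -1.18). In FR>FFPE PB, mouse 18D had Rpph1 at 4156 CPM (the others 3357 to 3555), and mouse 20B had a log2 ratio of Rnu11 to Rpph1 of -13.8 (the others -12.6 to -12.0), on 2 counts of Rnu11.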

How the results depend on the processing

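Over 56 results, 350 of 429 alternative values kept their direction and their side of the threshold, or stayed within 1.5 times a count. Averaged over Con and PB, Rnu11 passed in FFPE vs. FR under every alternative run (2.53 to 3.52 on the log2 scale, adjusted p at most 0.00138), in FR>FFPE vs. FR (1.44 to 1.85), in FR>OH vs. FR (1.01 to 1.33, adjusted p at most 0.0173) and in FFPE vs. FR>FFPE (1.09 to 1.77). Of these averages, only FFPE vs. FR was run with the lane number as a term. In Con mice alone that term removed the call of Rnu11 in FR>FFPE vs. FR and in FFPE vs. FR>FFPE, as given above. Differences of Rmrp and Rpph1 from FR depended on the library size, which shifts all genes together by construction. With TMM they were -0.45 and -0.30 in FFPE, -0.25 and -0.26 in FR>FFPE, and -0.30 and -0.24 in FR>OH. DESeq2 gave -0.45 and -0.30, -0.26 and -0.27, and -0.31 and -0.25. With the larger divisor they were -1.12 and -0.97, -0.33 and -0.35, and -0.45 and -0.39, and by limma from the deposited log2 table -1.12 and -0.97, -0.33 and -0.35, and -0.46 and -0.39. All of these passed. In FFPE vs. FR, 4185 (TMM), 4244 (DESeq2), 9451 (larger divisor) and 9588 (limma) of all 13370 genes passed as lower. FFPE vs. FR>FFPE passed for Rmrp and Rpph1 with the larger divisor (-0.79 and -0.63) and limma (-0.79 and -0.62), where 11011 and 11102 of all genes passed as lower. Rpph1 in FR>FFPE vs. FR>OH turned to -0.019 with TMM and -0.020 with DESeq2, not passing.

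With the mouse as a replicate block, Rmrp was at -0.17 in FFPE vs. FR, -0.22 in FFPE vs. FR>FFPE and 0.17 in FR>FFPE vs. FR>OH, all of which passed. Of all 13370 genes, 2658, 3303 and 4779 passed in the same directions. The block changed no other call averaged over Con and PB.

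For PB vs. Con in FR>OH, Rpph1 passed with TMM (-0.40), DESeq2 (-0.40), without genes over 1% of a library in its size (-0.43) and without the 21C library of FR>FFPE Con (-0.37, which changes the spread and not the groups compared). Under these settings 789, 885, 994 and 570 of all 13370 genes passed as lower. Rmrp did not pass there with the larger divisor (-0.30), limma (-0.29), only the FR>OH libraries (-0.39) or only those of L5 (-0.38). Why was not tested. Other signs of differences near 0 turned under the following settings, and none of these values passed. With the lane number as a term these were Rpph1 in FFPE vs. FR (0.044), Rmrp and Rpph1 for PB vs. Con in FR (-0.014 and -0.11), Rnu11 for PB vs. Con in FFPE (0.042) and the interactions of Rmrp and Rpph1 in FFPE (0.074 and 0.018). Without genes over 1%, Rpph1 turned in FFPE vs. FR (0.033), FFPE vs. FR>FFPE (0.033) and PB vs. Con in FR (-0.044). Summed with its 3 copies, an alternative chosen after seeing the data, Rpph1 was at 0.012 in FFPE vs. FR. Without the 21C library, Rpph1 turned in FFPE vs. FR>FFPE (0.031), FR>FFPE vs. FR (-0.044), PB vs. Con in FR>FFPE (0.079) and its interaction (0.069), so these values rest on that library.

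Over 6 mice, where the smallest exact p is 0.03125, no ratio passed after adjustment (adjusted p of 0.0586 or more in Con and 0.0670 or more in PB). In Con and PB mice, Rnu11 to Rpph1 was at 3.70 and 3.04 in FFPE vs. FR, 2.01 and 1.39 in FR>FFPE vs. FR, 1.79 and 0.92 in FR>OH vs. FR, and 1.69 and 1.66 in FFPE vs. FR>FFPE. Rnu11 to Rmrp was at 3.88 and 3.18, 1.92 and 1.45, 1.78 and 1.06, and 1.96 and 1.73. Rmrp to Rpph1 was at -0.17 and -0.13 in FFPE vs. FR and 0.080 and 0.082 in FR>FFPE vs. FR>OH, and turned to 0.015 in Con for FR>OH vs. FR and -0.060 in PB for FR>FFPE vs. FR. In FFPE vs. FR, all 10 RNase P and MRP proteins passed, as lower, with the larger divisor, where 9451 of all 13370 genes were lower. With TMM 3 of the 8 U11/U12 proteins passed, where 4561 of all genes were higher and 4185 lower. In FR, 1 to 7 counts of Rnu11 a library limit its values.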
